A study of Mustela putorius furo and Mus musculus with 4 samples.

Results

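The Reelin receptors and neuronal migration genes described here are 8 genes, chosen by symbol: Reln, Vldlr, Lrp8, Dab1, Dcx, Pafah1b1, Cdk5r1 and Rnd2. All 8 had a row among the 17170 genes of the mouse table, and all 8, in upper case, among the 22008 genes of the ferret table. They were followed from radial glia (RG) through intermediate progenitor cells (IPCs) to pyramidal neurons (PyNs), and between the mouse genotypes.

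Neurons of the cortex are born close to the ventricle and move along RG fibers to the cortical plate. Reelin, a large secreted protein made mainly by Cajal-Retzius cells at the surface, binds the lipoprotein receptors VLDLR and ApoER2 (the product of Lrp8) on migrating neurons, and the adaptor DAB1 carries the signal inside the cell. In mice without Reelin, without both receptors or without DAB1 the cortical layers form in the wrong order. DCX and LIS1 (the product of Pafah1b1) act on microtubules and on the dynein motor that pulls the nucleus, Cdk5r1 encodes the neuronal activator of the kinase CDK5, and RND2 is a small GTPase that newborn neurons need to leave the multipolar stage.

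The study asked how Sonic hedgehog signaling, whose transducer is Smo, affects cortical RG cells near the end of neurogenesis. CellTrace Yellow dye was placed in the lateral ventricle of mouse embryos at E17.0, and cortical cells carrying it were sorted and sequenced at E18.0 on a droplet platform that counts each transcript once by its unique molecular identifier (UMI). The labels give the strain of both libraries as CD1. The genotypes had 1 library each. In the Smo-cKO embryos (hGFAP-Cre;Smo F/F) a human GFAP promoter drives Cre in RG cells, so that Smo is also lost from their progeny. The control came from littermates, whose genotype is Smo F/F in the paper and wild type in the labels. Microglia and vascular cells are outside that cortical lineage, as are interneurons that entered from the ventral forebrain. The paper also shows hGFAP-Cre in RG cells of the lateral ganglionic eminence, a part of the ventral forebrain, before the stage sampled. It further states that cortical progenitors give rise to some olfactory bulb interneurons. Interneuron-like cells may therefore include cells that lost Smo. The ferret data are wild-type cortex of 1 embryo at E39, in 2 sets of barcodes whose match to the 2 samples of the labels is not known.

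After the cell filter, the control library held 10498 cells (median 4033.5 UMIs) and the Smo-cKO library 7209 cells (median 4836 UMIs), and the ferret sets held 10185 cells (median 2556) and 13052 cells (median 3563). The libraries shared 28 mouse barcodes and the sets 38 ferret barcodes. Barcode suffixes were matched to genotypes only through the cell numbers stated in the paper, 10524 for control and 7596 for Smo-cKO, and every direction between the mouse libraries rests on that match. Smo itself, the targeted gene, had 86 UMIs in control RG-like cells (17.8 CPM, the UMIs of a gene among each 1000000 UMIs of the class) and 2 UMIs in Smo-cKO RG-like cells (0.330 CPM). With 1 library per genotype no test was possible. Intervals given below are 95% intervals of counting error alone, and genotype, embryo and preparation cannot be told apart in these libraries.

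Cell classes were rebuilt from marker genes in clusters made without the 8 genes. RG-like cells numbered 912 in control and 822 in Smo-cKO, IPC-like cells 2071 and 1339, and PyN-like cells 3644 and 3020. In each class median depth was higher in Smo-cKO, at 6987 against 4755 UMIs in RG-like cells, 5145 against 4034 in IPC-like cells and 3884 against 3160.5 in PyN-like cells. Levels are therefore given as CPM of summed UMIs, and where the share of cells with a UMI of 1 gene is compared between genotypes, the share expected at 2900 UMIs per cell is given beside it. That expected share covers only cells with at least 2900 UMIs, which in the PyN-like class were 2445 control and 2675 Smo-cKO cells. Microglia-like cells, which are not of the neural lineage, are a rough guide to neuronal RNA that the droplets held from elsewhere (96 control and 176 Smo-cKO cells, median 8461 and 7578.5 UMIs). They were deeper than RG-like cells, so equal CPM need not mean equal amounts per droplet, and doublets were not removed.

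Along the mouse lineage 6 of the genes took 3 courses. Lrp8, Dcx, Cdk5r1 and Rnd2 were low in RG-like cells and high in IPC-like and PyN-like cells, Dab1 was highest in RG-like cells, and Pafah1b1 was nearly level. Of the 7 genes with at least 50 UMIs in each library over both classes, 4 were at least 1.5-fold higher in PyN-like than in RG-like cells in both libraries, where 22.1% of 10497 genes were. One, Dab1, was at least 1.5-fold lower in both, where 22.2% of genes were. Vldlr and Pafah1b1 did not pass 1.5-fold in both libraries, and Reln had too few UMIs.

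**Figure D1:**
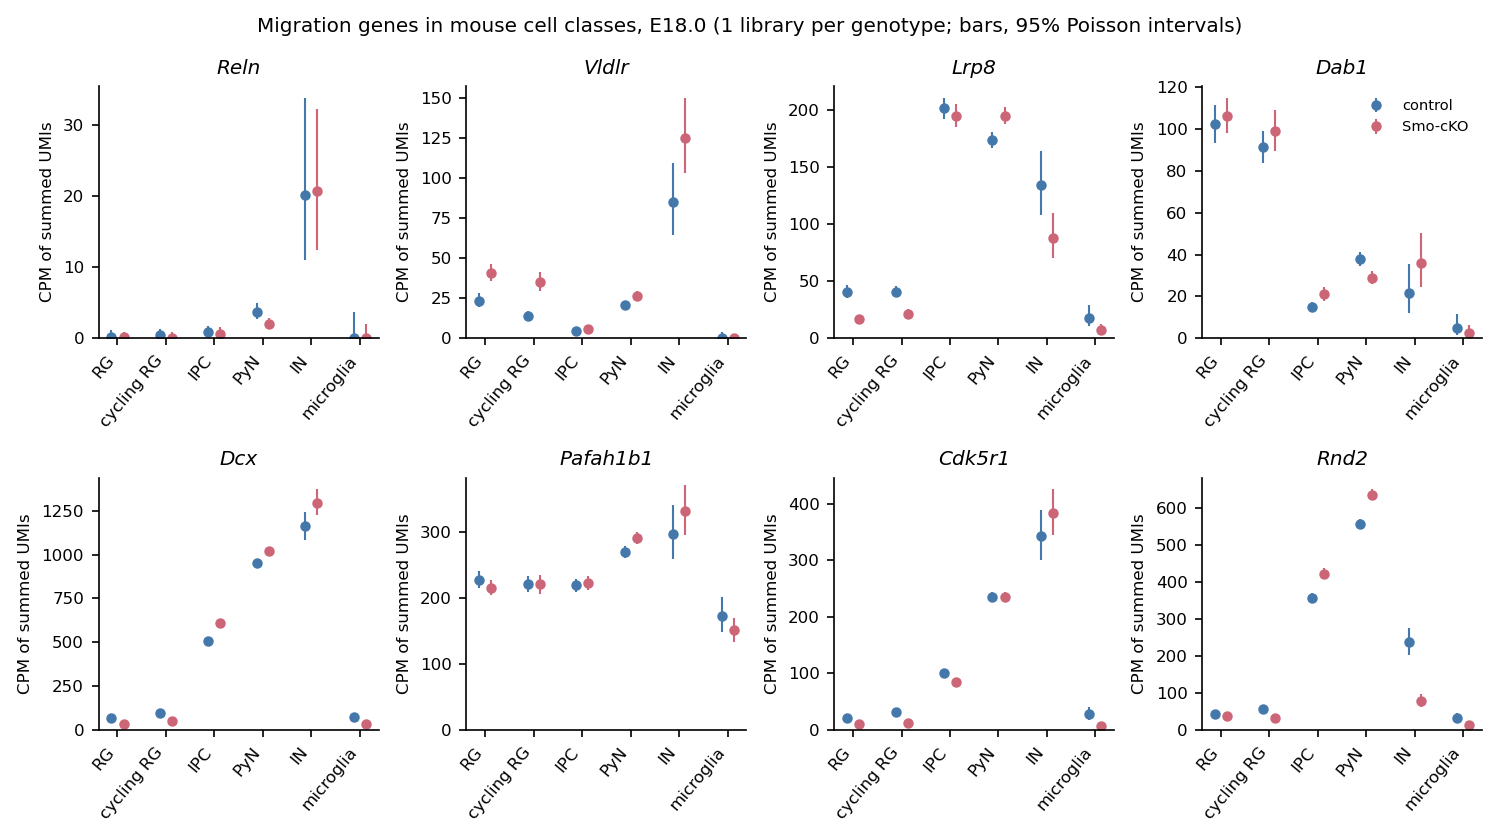
CPM of each gene (vertical axis, from 0) in 6 mouse cell classes (horizontal axis), with control in blue, Smo-cKO in red and 95% Poisson intervals as bars. Dcx rose from 66.4 and 35.0 CPM in RG-like cells to 954 and 1021 CPM in PyN-like cells, while Dab1 was highest in RG-like cells, and Vldlr had no UMI in microglia-like cells.

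Reln, the ligand gene (chr5:21884454-22344702, minus strand of GRCm38), came from very few cells. A cluster of 25 Cajal-Retzius-like cells, 19 in control and 6 in Smo-cKO, held 448 of the Reln UMIs in control (81.6% of that library's Reln UMIs) and 153 in Smo-cKO (74.6%). Its Reln level was 2746 CPM in control and 2778 CPM in Smo-cKO, and Reln led its marker genes although it had been left out of the clustering. Cajal-Retzius cells sit at the pial surface, while the dye was injected into the ventricle and the cells were sorted for it.

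Outside that cluster Reln was low. In interneuron-like cells it was 20.1 CPM in control (14 UMIs) and 20.7 CPM in Smo-cKO (19 UMIs). In PyN-like cells it was 3.74 CPM in control (49 UMIs) and 1.96 CPM in Smo-cKO (25 UMIs), a ratio of 0.525 (0.310 to 0.866). RG-like cells had 1 UMI in each library, and microglia-like cells had none. A Reln UMI was seen in 1.15% of control PyN-like cells and in 100% of the control Cajal-Retzius-like cells. In Smo-cKO it was seen in 0.828% of PyN-like cells and in 4 of the 6 Cajal-Retzius-like cells (66.7%).

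Vldlr, 1 of the 2 receptor genes (chr19:27216484-27254231, plus strand), had its low point in IPC-like cells. It was 23.4 CPM in control RG-like cells, 4.56 CPM in IPC-like cells and 20.5 CPM in PyN-like cells, and in Smo-cKO 41.0, 5.96 and 26.5 CPM. The ratio of IPC-like over RG-like cells was 0.195 (0.133 to 0.280) in control and 0.146 (0.103 to 0.201) in Smo-cKO, and PyN-like cells were 4.50-fold and 4.44-fold above IPC-like cells. Interneuron-like cells were highest of the classes with at least 20 cells, at 84.9 CPM in control and 125 CPM in Smo-cKO, whose intervals (64.6 to 110 and 103 to 150 CPM) overlap each other but lie above those of every other such class. The unnamed cluster led by Cxcl10 (34 and 35 cells) had 157 and 111 CPM.

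Lrp8, the gene of the other receptor (chr4:107802261-107876840, plus strand), ran the opposite way over the first step. It was 40.5 CPM in control RG-like cells, 201 in IPC-like cells and 173 in PyN-like cells, against 17.2, 195 and 195 CPM in Smo-cKO. IPC-like cells exceeded RG-like cells 4.97-fold in control and 11.3-fold in Smo-cKO, and PyN-like cells were at 0.862 and 1.00 of the IPC-like level. In endothelial-like cells Lrp8 was 469 CPM in control (36 cells) and 350 CPM in Smo-cKO (16 cells), above every neural class. From RG-like to IPC-like cells the receptors thus ran in reverse in both libraries. Of the 3 lineage classes, IPC-like cells had the least Vldlr, and Lrp8 was at or near its highest there. Over the next step, to PyN-like cells, Vldlr rose and Lrp8 changed little.

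Few cells had UMIs of both receptors. In control they were 1.86% of RG-like, 1.26% of IPC-like and 2.96% of PyN-like cells, and in Smo-cKO 2.43%, 2.02% and 5.26%. Vldlr UMIs were sparse, in 9.87% of control RG-like and 1.83% of control IPC-like cells, and the share with both receptors cannot exceed these. Whether the receptors lay in separate cells was not tested, and the low shares alone do not show it. At least 1 receptor was seen in 23.1% of control RG-like cells and 53.4% of control IPC-like cells. Dab1 UMIs went the other way, with 38.5% of control RG-like cells and 5.79% of control IPC-like cells, so that a receptor together with Dab1 was seen in 10.7% and 3.33% of them. Cells with a Dab1 UMI were also deeper (median 5222 against 4387 UMIs in control RG-like cells), these shares were not brought to a common depth, and the part of depth in them was not tested.

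Dab1, the adaptor gene (chr4:103619359-104744844, plus strand), was high in RG-like cells, low in IPC-like cells and uneven among the PyN clusters. RG-like cells had 102 CPM in control and 106 CPM in Smo-cKO, and cycling RG-like cells 91.2 and 99.1 CPM. IPC-like cells had 14.9 CPM in control and 21.1 CPM in Smo-cKO, or 0.145 (0.120 to 0.176) and 0.199 (0.166 to 0.237) of the RG-like level. Microglia-like cells had 5 UMIs in each library (5.06 and 2.72 CPM).

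Among PyN-like cells most Dab1 UMIs came from 1 cluster. In the cluster led by Pcp4, with Neurod1 among its leading genes, Dab1 was 4.43 CPM in control and 5.94 CPM in Smo-cKO, and in the cluster led by Plxna4 and Nrp1 it was 11.0 and 19.6 CPM. In the cluster led by Stmn2 and Mef2c, a transcription factor gene of postmitotic neurons (292 control and 263 Smo-cKO cells) it was 303 CPM in control, from 416 of the 496 PyN-like Dab1 UMIs, and 170.1 CPM in Smo-cKO, from 242 of 368. That cluster's level lay above RG-like cells in both libraries. The low ratio of PyN-like over RG-like cells (0.370 in control and 0.272 in Smo-cKO) therefore joins a majority of cells with little Dab1 to a minority with much. Without that cluster the ratios were 0.0667 and 0.105.

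**Figure D2:**
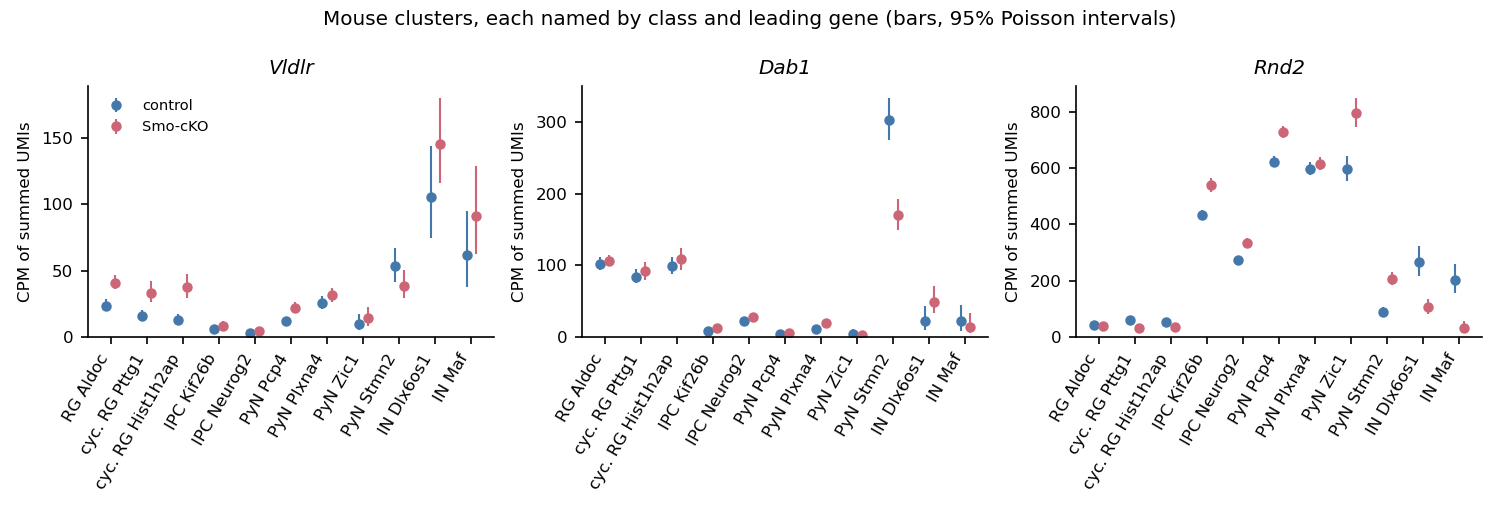
CPM of Vldlr, Dab1 and Rnd2 (vertical axes, from 0) in mouse clusters from RG to interneurons, each named by class and leading gene, with control in blue, Smo-cKO in red and 95% Poisson intervals. Dab1 peaked in the PyN cluster led by Stmn2 (303 and 170.1 CPM), where Rnd2 had its lowest values of the PyN clusters (89.0 and 207 CPM).

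Dcx, which encodes the microtubule protein doublecortin (chrX:143855842-143933311, minus strand), stepped up at each stage. It was 66.4 CPM in control RG-like cells, 508 in IPC-like cells and 954 in PyN-like cells, and in Smo-cKO 35.0, 608 and 1021 CPM. Within the IPCs, the cluster led by Neurog2 had 269 CPM in control and 422 CPM in Smo-cKO, below the 726 and 863 CPM of the cluster led by Kif26b and Eomes. Interneuron-like cells had 1163 and 1297 CPM. The RG-like level lay close to that of microglia-like cells, which had 75.9 CPM in control (59.7 to 95.2) and 30.5 CPM in Smo-cKO (23.1 to 39.6). A Dcx UMI was seen in 12.5% of control RG-like cells and in 21.9% of control microglia-like cells, with 8.67% and 14.4% expected at 2900 UMIs per cell. In both libraries the Dcx intervals of RG-like (59.3 to 74.1 and 30.5 to 40.0 CPM) and microglia-like cells overlap.

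Rnd2 (chr11:101464999-101471853, plus strand) rose along the lineage but was low in 1 PyN cluster. It was 42.7 CPM in control RG-like cells, 356 in IPC-like cells and 556 in PyN-like cells, and in Smo-cKO 38.0, 420.4 and 635 CPM. The PyN clusters led by Pcp4, Zic1 and Plxna4 had 597 to 623 CPM in control and 615 to 797 CPM in Smo-cKO, and the Mef2c cluster had the least, at 89.0 CPM in control and 207 CPM in Smo-cKO. Microglia-like cells had 32.4 and 14.2 CPM. The control RG-like interval (37.1 to 49.0 CPM) overlaps that of control microglia-like cells (22.2 to 45.7 CPM), while in Smo-cKO the RG-like interval (33.2 to 43.2 CPM) lies above that of microglia-like cells (9.25 to 20.8 CPM).

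Cdk5r1 (chr11:80477023-80481184, plus strand) was 20.3 CPM in control RG-like cells, 101 in IPC-like cells and 235 in PyN-like cells, with 10.4, 85.0 and 235 CPM in Smo-cKO. Interneuron-like cells had 342 and 383 CPM. The RG-like intervals (16.5 to 24.8 and 7.99 to 13.3 CPM) overlap those of microglia-like cells in the same library, which had 27.3 CPM in control (18.0 to 39.8) and 6.54 CPM in Smo-cKO (3.38 to 11.4). Pafah1b1 (chr11:74673949-74724670, minus strand), whose product LIS1 is used by nearly all cells, ranged only from 197 to 332 CPM over the RG-like, cycling RG-like, glial progenitor-like, IPC-like, PyN-like and interneuron-like cells of both libraries. Its ratio of PyN-like over RG-like cells was 1.18 (1.11 to 1.27) in control and 1.35 (1.27 to 1.44) in Smo-cKO.

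Between the genotypes, 4 genes passed 1.5-fold in RG-like cells, but 2 without integration and 1 with cells chosen one by one by their markers. Of the 7 genes with at least 50 UMIs over both libraries, 1 was at least 1.5-fold higher in Smo-cKO, where 5.99% of 10017 genes were, and 3 were at least 1.5-fold lower, where 7.08% were. The higher gene was Vldlr and the lower ones were Lrp8, Dcx and Cdk5r1. Dab1, Pafah1b1 and Rnd2 lay within 1.5-fold, and Reln had 2 UMIs in all.

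The Vldlr difference was seen in every RG and glial progenitor cluster with at least 50 cells in each library. In RG-like cells Vldlr was 23.4 CPM in control (113 UMIs) and 41.0 CPM in Smo-cKO (248 UMIs), a ratio of 1.75 (1.39 to 2.20). It was 2.50 (1.91 to 3.30) in cycling RG-like cells, from 14.1 to 35.4 CPM, and 2.96 (1.96 to 4.49) in glial progenitor-like cells, from 5.02 to 14.9 CPM. In both cycling RG clusters, in the unnamed Gfap cluster and in the 3 glial progenitor clusters of that size the ratio lay between 2.15 and 4.17, and each of those intervals lay above 1. It was 1.44 (0.945 to 2.20) in the unnamed cluster led by Igfbp5 and Ptprz1. Shares agreed in sign: 9.87% of control and 23.5% of Smo-cKO RG-like cells had a Vldlr UMI, and 5.91% and 10.9% were expected to at 2900 UMIs per cell. Microglia-like cells had no Vldlr UMI, which allows at most 3.04 CPM in control and 1.63 CPM in Smo-cKO. The ratio in RG-like cells was above 1.5 under each of the 9 alternative settings tried for these cells (1.56 to 2.07).

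Further along the lineage the Vldlr ratio was smaller. It was 1.31 (0.836 to 2.04) in IPC-like cells and 1.29 (1.09 to 1.52) in PyN-like cells. Within the PyNs it was 1.82 (1.36 to 2.46) in the cluster led by Pcp4, 1.23 (0.949 to 1.59) in the cluster led by Plxna4 and 0.726 (0.502 to 1.04) in the Mef2c cluster. Whether these ratios differ from that of RG-like cells was not tested.

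The 3 lower genes moved together with the same genes in microglia-like cells. In RG-like cells the ratio of Smo-cKO over control was 0.424 (0.331 to 0.541) for Lrp8, 0.527 (0.441 to 0.629) for Dcx and 0.512 (0.367 to 0.709) for Cdk5r1. In microglia-like cells it was 0.419 (0.193 to 0.891), 0.402 (0.279 to 0.576) and 0.239 (0.110 to 0.488). Rnd2, with 0.889 (0.733 to 1.08) in RG-like cells, was 0.574 (0.467 to 0.701) in cycling RG-like cells and 0.437 (0.250 to 0.757) in microglia-like cells. These 3 genes and Rnd2 were thus lower in Smo-cKO in a cell type outside the neural lineage too. The cluster led by Spp1 held 71 of the 96 control and 76 of the 176 Smo-cKO microglia-like cells. Lrp8 was 12.6 and 6.21 CPM there, and 41.8 and 9.88 CPM in the other microglia-like cluster. Whether neuronal RNA in the droplets, doublets or this mix of clusters lay behind the microglia-like ratios was not tested, nor was any part in the RG ratios. Only Lrp8 of the 3 stood above the microglia-like level in both libraries (35.0 to 46.6 against 10.8 to 28.8 CPM in control, 14.0 to 20.8 against 4.17 to 12.8 CPM in Smo-cKO). The share of RG-like cells with a Dcx UMI was 12.5% in control and 12.9% in Smo-cKO, and 8.67% and 6.64% were expected at 2900 UMIs per cell. With RG-like cells chosen one by one by their markers, the ratio was 0.803 for Lrp8, 0.861 for Dcx and 0.667 for Cdk5r1, and none of the 3 passed 1.5-fold.

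**Figure D3:**
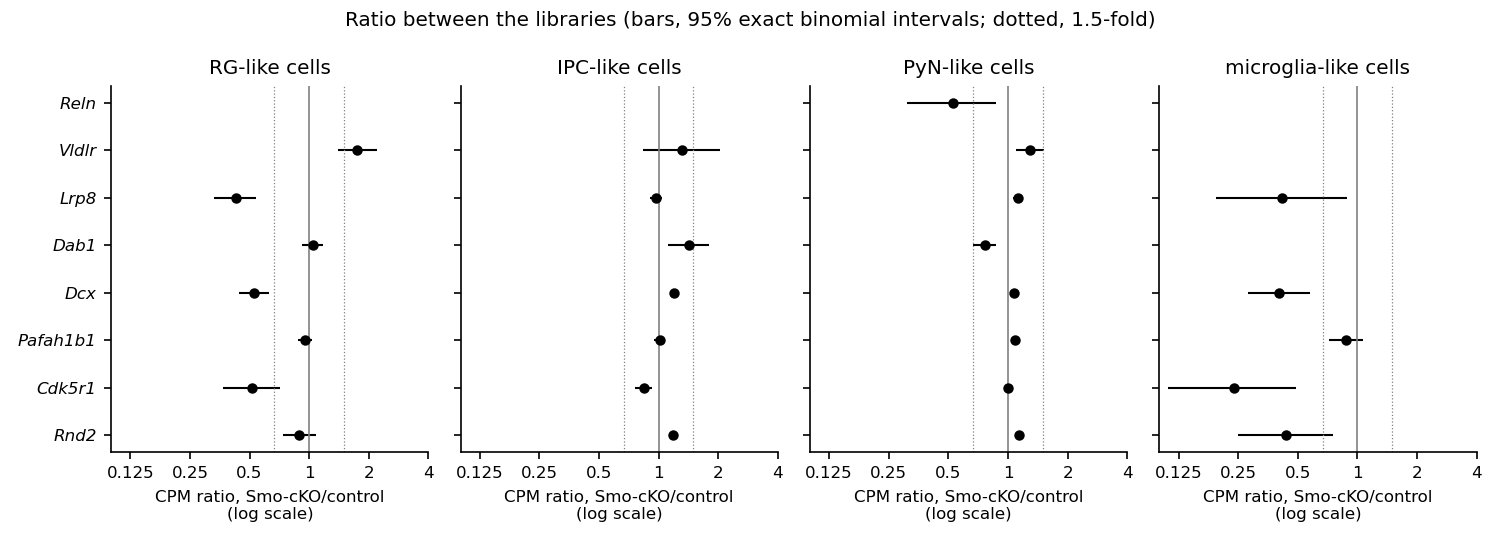
Ratio of CPM, Smo-cKO over control (horizontal axis, log scale), for each gene (vertical axis) in 4 mouse classes, with 95% exact binomial intervals as bars, dotted lines at 1.5-fold either way, and genes under 20 UMIs in a class left out. Vldlr lay above 1 in RG-like cells (1.75), and Lrp8, Dcx and Cdk5r1 lay below 1 in RG-like and in microglia-like cells alike.

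In IPC-like cells none of the 7 genes with enough UMIs passed 1.5-fold, where 5.64% of 10140 genes were higher and 2.17% lower. Dcx was 1.20-fold (1.15 to 1.25) and Rnd2 1.18-fold (1.12 to 1.24) higher in Smo-cKO, and Cdk5r1 was at 0.839 (0.757 to 0.929). The Dcx ratio was 1.57 (1.46 to 1.69) in the Neurog2 cluster and 1.19 (1.13 to 1.25) in the Eomes cluster. Dab1 was 1.42-fold higher (1.12 to 1.80), at levels of 14.9 and 21.1 CPM.

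In PyN-like cells 1 of the 8 genes, Reln, passed 1.5-fold and was lower, where 1.91% of 10594 genes were lower and 3.89% higher. Its ratio of 0.525 rests on 49 and 25 UMIs. Of these the Pcp4 cluster held 16 in each library and the Plxna4 cluster 15 in control and 2 in Smo-cKO. The Zic1 cluster, with the highest Reln level of the PyN clusters (14.0 and 6.05 CPM), held 16 in control and 7 in Smo-cKO. Lrp8 (1.12), Dcx (1.07), Pafah1b1 (1.08), Cdk5r1 (0.999) and Rnd2 (1.14) stayed close to 1. Dab1 was at 0.763 (0.665 to 0.875) in all PyN-like cells, which joins 0.560 (0.476 to 0.658) in the Mef2c cluster with 1.78 (1.24 to 2.58) in the Plxna4 cluster. Without the Mef2c cluster, a choice made after these values were seen, the Dab1 ratio of PyN-like cells was 1.63. In the same Mef2c cluster Rnd2 was 2.32-fold higher in Smo-cKO (1.87 to 2.89), from 89.0 to 207 CPM, the reverse of Dab1.

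Interneuron-like cells showed the widest difference in Rnd2. It was 236 CPM in control (164 UMIs, 173 cells) and 77.2 CPM in Smo-cKO (71 UMIs, 291 cells), a ratio of 0.327 (0.244 to 0.435). The ratio was 0.398 (0.284 to 0.554) in the cluster led by Dlx6os1 and 0.155 (0.0737 to 0.295) in the cluster led by Maf and Lhx6. Lrp8 was also lower there, at 134 and 88.1 CPM (ratio 0.658, 0.483 to 0.897). Vldlr was 1.47-fold higher (1.07 to 2.05), and Dcx and Cdk5r1, which these neurons express strongly, were each 1.12-fold higher. Smo itself was 5.76 CPM in control and 1.09 CPM in Smo-cKO interneuron-like cells. How many of these cells had lost Smo was not tested.

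Other genes of the pathway were grouped in lists, and the genes of those described here are all in the mouse table. Of the Reelin cascade around DAB1 (20 genes for kinases, adaptors, DAB1 degradation and adhesion), 18 had enough UMIs in RG-like cells, of which 1 was higher in Smo-cKO and 0 were lower, beside 5.99% and 7.08% of all genes, so that the count is near that background. That gene was Limk1, a kinase that acts on cofilin, at 7.26 and 12.2 CPM (ratio 1.68, 1.11 to 2.59). In IPC-like cells 1 of 19 was higher, beside 5.64% of all genes. It was Socs7, whose product takes part in DAB1 degradation (10.6 and 16.4 CPM, ratio 1.54, 1.17 to 2.03). In PyN-like cells 0 of 20 passed 1.5-fold, where 3.89% of all genes were higher and 1.91% lower. The list's median log2 ratio was -0.08 in RG-like, 0.13 in IPC-like and 0.10 in PyN-like cells, beside -0.01, 0.06 and 0.05 over all genes tested.

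Of the 18 genes of the microtubule and motor list, 0 of 16 passed 1.5-fold in RG-like cells, where 5.99% of all genes were higher and 7.08% lower. In IPC-like cells 1 of 16 was higher, beside 5.64% of all genes. In PyN-like cells 1 of 18 was lower, beside 1.91%. Map1b, which encodes a microtubule-associated protein of young neurons, was 62.5 and 105 CPM in IPC-like cells (ratio 1.67, with an interval above 1). Dync1i1, a dynein intermediate chain, was 14.8 CPM in control and 2.90 CPM in Smo-cKO PyN-like cells (ratio 0.196, 0.134 to 0.280). The median log2 ratio of the list was 0.10 in RG-like, 0.12 in IPC-like and 0.07 in PyN-like cells.

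Across 35 points (18 mouse clusters by library, with at least 50 cells each), the genes whose log2 level ran most like each member were as follows, by Pearson correlation and as a description of points that share libraries. Dcx ran most like Nsg2 (0.992), Csnk1e and Rbfox2, Cdk5r1 most like Mllt11 (0.986), Tubb3 and D430019H16Rik, and Rnd2 most like Sstr2 (0.973), Neurod1 and Plcb1. Lrp8 ran most like Elavl2 (0.973), Igfbpl1 and Elavl4, and Pafah1b1 most like Kif3c (0.945), Dpysl2 and Nbea. Vldlr ran most like Ly6h (0.909), Ncam1 and Pde10a, Dab1 most like Cadm2 (0.885), Il17d and Fam124a, and Reln most like Cacnb4 (0.824), followed by RP23-291B1.2 and Erbb4.

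In the ferret cortex at E39 the classes were of 466 and 576 RG-like, 1015 and 1252 IPC-like and 1653 and 2670 PyN-like cells in the first and second set. A further 57.7% and 48.1% of cells lay in unnamed clusters, led by genes such as NRP1, PRSS12 and PENK. Of the 7 genes with at least 50 UMIs in each set, 4 (DAB1, DCX, CDK5R1 and RELN) were at least 1.5-fold higher in PyN-like than in RG-like cells in both sets, where 17.1% of 9690 genes were, and 0 were lower, where 16.9% were. LRP8, PAFAH1B1 and RND2 did not pass in both sets, and VLDLR had 8 and 37 UMIs in RG-like cells and 29 and 95 in PyN-like cells.

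DAB1 was higher in PyN-like than in RG-like cells, the reverse of the mouse classes. It was 120.0 CPM in RG-like cells of the first set and 138 CPM in those of the second, 48.2 and 25.9 CPM in IPC-like cells, and 244 and 561 CPM in PyN-like cells. The PyN-like over RG-like ratio was 2.03 (1.74 to 2.39) and 4.07 (3.65 to 4.54). Over these classes the low point in IPC-like cells was shared with the mouse. Single mouse PyN clusters lay lower still, at 4.43 CPM in control and 5.94 CPM in Smo-cKO in the Pcp4 cluster. The Zic1 cluster had 4.38 and 2.59 CPM. With the ferret sets clustered without integration, the PyN-like over RG-like ratio of the first set was 0.822. Among PyN-like clusters DAB1 was 106 and 125 CPM in the one led by UNC5D, a gene of migrating neurons, 395 and 937 CPM in the one led by NTS and ZFPM2, and 442 and 1122 CPM in the one led by ADRA1A (42 and 403 cells). The unnamed clusters other than the one led by PDGFRA ranged from 193 to 829 CPM, and of these the cluster led by PRSS12 and BCL6 had the most (524 and 829 CPM). Microglia-like cells, with 82.5 and 106 CPM, were close to the RG-like level, and endothelial-like cells, with 50.1 and 27.7 CPM, were below it.

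**Figure D4:**
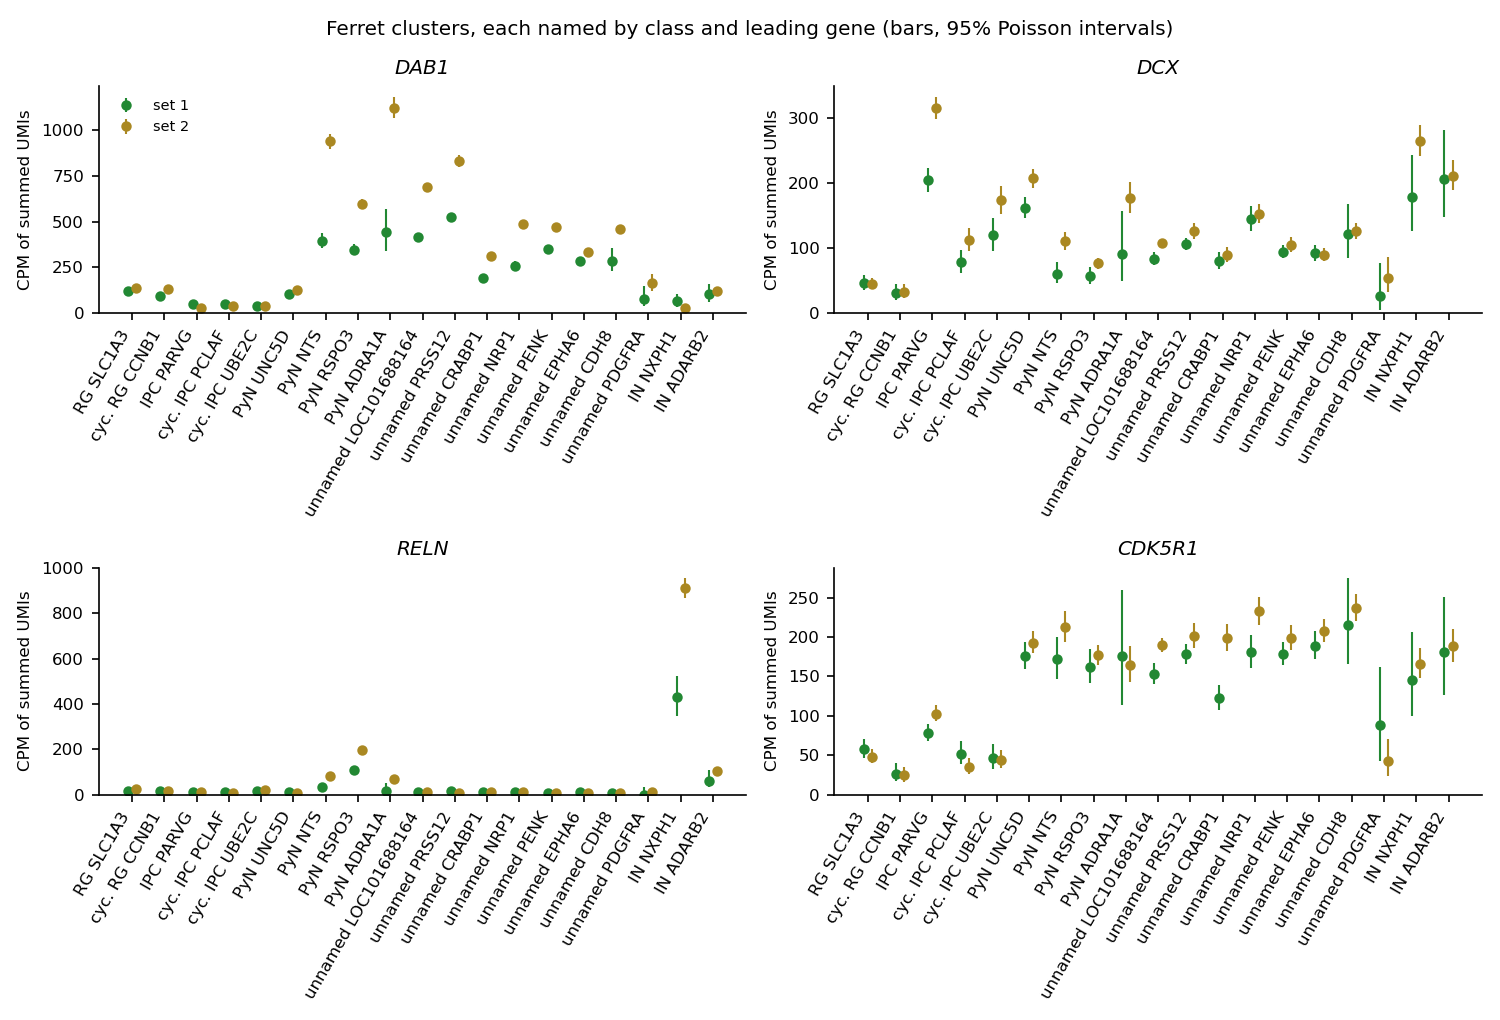
CPM of DAB1, DCX, RELN and CDK5R1 (vertical axes, from 0) in ferret clusters from RG to interneurons, each named by class and leading gene, with the first set in green, the second in ochre and 95% Poisson intervals. DAB1 was low in the IPC clusters and in the PyN cluster led by UNC5D and high in the other PyN clusters, and RELN was highest in the interneuron cluster led by NXPH1 (429 and 911 CPM).

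Of the RG-like, IPC-like and PyN-like classes of the ferret, IPC-like cells had the most DCX and RND2. DCX was 46.3 and 44.6 CPM in RG-like cells, 204 and 314 CPM in IPC-like cells and 109 and 137 CPM in PyN-like cells, with 161 and 207 CPM in the UNC5D cluster of PyN-like cells. RND2 was 9.78 and 11.2 CPM in RG-like, 22.5 and 43.2 CPM in IPC-like and 14.7 and 18.2 CPM in PyN-like cells. In the UNC5D cluster RND2 was 26.6 and 40.1 CPM, close to the IPC-like level. Its highest ferret level was in the unnamed cluster led by PDGFRA and OLIG1, genes of oligodendrocyte precursors, at 212 and 271 CPM in 40 and 85 cells. CDK5R1 rose at the second step, from 78.3 and 103 CPM in IPC-like cells to 171 and 188 CPM in PyN-like cells.

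LRP8 followed the mouse course over the first step, from 35.9 and 40.7 CPM in RG-like to 105 and 136 CPM in IPC-like cells, and fell to 55.7 and 51.1 CPM in PyN-like cells. Endothelial-like cells again had more than RG-like or PyN-like cells, with 127 and 157 CPM. VLDLR was too sparse for the 1.5-fold count, at 5.22 and 14.7 CPM in RG-like, 6.83 and 4.44 CPM in IPC-like and 6.07 and 8.30 CPM in PyN-like cells. PAFAH1B1 ranged from 155 to 273 CPM over these 3 classes.

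RELN in the ferret was highest in 3 classes. The 44 and 37 Cajal-Retzius-like cells had 7041 and 6076 CPM and held 67.9% and 28.0% of the RELN UMIs of their set. Interneuron-like cells had 257 and 530.5 CPM and held 5.50% and 38.8%, in 189 and 1297 cells, and within them the cluster led by NXPH1 and SST had 429 and 911 CPM against 61.9 and 104 CPM in the cluster led by ADARB2. Among PyN-like cells, with 42.7 and 99.4 CPM, the deep-layer clusters led by RSPO3 and FEZF2 (107 and 199 CPM) and by NTS (33.0 and 80.5 CPM) stood above the UNC5D cluster (10.0 and 8.13 CPM). PyN-like cells held 10.6% and 23.6% of the RELN UMIs. The many unnamed cells held 11.2% and 5.59%, at 12.2 and 9.23 CPM. RG-like cells had 17.6 and 23.1 CPM, and microglia-like cells 3.59 and 33.0 CPM, from 1 and 9 UMIs. With all unnamed clusters except the one led by PDGFRA added to the PyN-like class, a choice made after these values were seen, the RELN ratio over RG-like cells was 1.07 and 1.51.

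**Figure D5:**
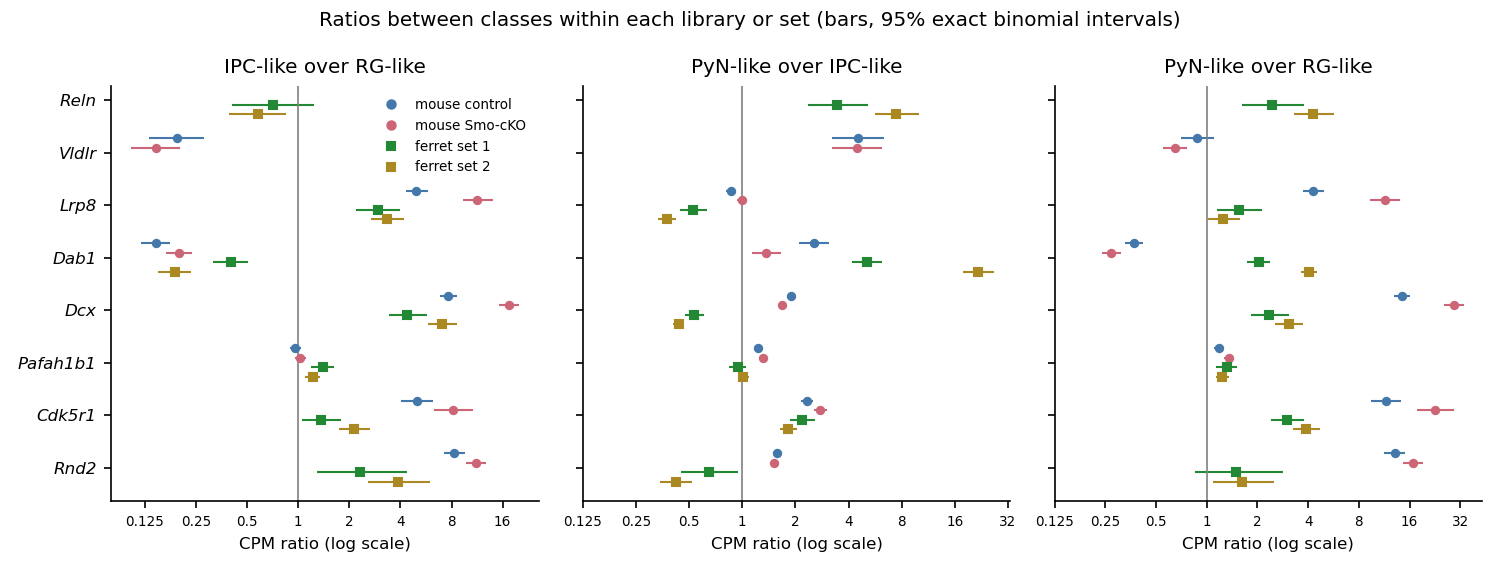
CPM ratios between classes (horizontal axes, log scale) for each gene (vertical axis) in the mouse control and Smo-cKO libraries (circles) and the ferret sets (squares), with 95% exact binomial intervals; genes under 50 UMIs in a library or set are left out. DAB1 lay on opposite sides of 1 in the mouse (0.370 and 0.272) and the ferret (2.03 and 4.07) for PyN-like over RG-like cells, and DCX and RND2 did so for PyN-like over IPC-like cells.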

How the data were processed

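The mouse libraries and the ferret cells were deposited by the authors as 2 gene-by-cell tables of raw, unnormalized UMI counts, made with Cell Ranger. The submitters' processing notes also name StringTie, Seurat 3 and mm10, also for the ferret samples. Genotype was taken from the barcode suffix by the cell numbers that the paper states. Cells with 750 to 5000 genes and under 10% mitochondrial UMIs were kept, and doublets were not removed. The libraries (or sets) were integrated by anchors in Seurat 5.3.0 (R 4.3.3), on 2000 variable genes without the 8 genes, the pathway lists and Smo, with 30 dimensions and resolution 0.8.

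Each cluster was given the class of which it held most markers (log2 fold of at least 1 with 10 CPM added, in at least 10% of its cells, at least 3 markers) and stayed unnamed where another class led its 10 leading genes. These names are not the authors' annotation and may divide the cells differently. Summed UMIs were given as CPM with exact Poisson intervals, shares with Clopper-Pearson intervals and ratios with exact conditional binomial intervals (python 3.11.15, scipy 1.17.1). A count of 0 was given a limit of 3 UMIs. A gene was counted as higher or lower from 1.5-fold, with at least 50 UMIs over both groups. The calculation was tested on simulated counts. Retained totals were 51657121 and 42057782 UMIs in mouse and 30548876 and 56090792 in ferret.

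The 8 genes, lists and markers were chosen with earlier results of these data known. Pathway genes were named if past 1.5-fold with an interval that left out 1, at most 2 per list, class and direction. One list of pathway genes is not reported here. Likeness used log2(CPM + 10) over genes with at least 500 UMIs. Coordinates are from GENCODE M21. The build of the ferret table was not matched to a reference here.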

Additional observations from a re-analysis of the deposited data

Results flagged for a closer look

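With the reported classes, Dab1, Dcx and Rnd2 ran in opposite directions in mouse and ferret, in both libraries and both sets. Whether the species differ was not tested, since species, stage and sort cannot be told apart (mouse cells were sorted by dye, ferret cells were whole cortex). The PyN-like over IPC-like ratios of Dcx and Rnd2 were not recomputed under the alternative settings. The DAB1 ratio of the first ferret set fell to 0.822 without integration. Dab1 in PyN-like over RG-like cells was 0.370 in mouse control and 0.272 in Smo-cKO, but 2.03 and 4.07 in the ferret sets. Dcx in PyN-like over IPC-like cells was 1.88 and 1.68 in the mouse libraries, but 0.535 and 0.435 in the ferret sets. Rnd2 over the same step was 1.56 and 1.51 in the mouse libraries, but 0.652 and 0.421 in the ferret sets. Within the neurons of both species the values differed between clusters. In the mouse Mef2c cluster Dab1 was 303 and 170.1 CPM, above the 102 and 106 CPM of RG-like cells, and Rnd2 was 89.0 and 207 CPM. In the ferret UNC5D cluster DAB1 was 106 and 125 CPM, beside 120.0 and 138 CPM in RG-like cells. DCX was 161 and 207 CPM there. RND2 was 26.6 and 40.1 CPM in that cluster, beside 22.5 and 43.2 CPM in IPC-like cells.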

How the results depend on the processing

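Of the single ratios recomputed under the alternatives, 394 stayed within the counting interval of the reported value, 102 moved outside it and 7 whose reported value was past 1.5-fold crossed 1. Of the ratios between classes, only those of PyN-like over RG-like cells were recomputed, and these moved most. With cells chosen one by one, 22 of them moved, 3 crossed 1 and 4 stayed, and without integration 17, 2 and 11 did. Between genotypes 2 moved and 20 stayed under either setting. Mouse Dcx in PyN-like over RG-like cells of Smo-cKO, 29.2, ranged from 7.01 to 37.1. The count of the 8 genes past 1.5-fold between genotypes in RG-like cells, reported as 4, was 2 without integration, 1 with cells chosen one by one by their markers and 1 at a fold of 2. In IPC-like cells it was 1 instead of 0 at resolution 1.6 (Vldlr, 1.61). In PyN-like cells, reported as 1, it was 0 at a fold of 2 and 2 without the Mef2c cluster, where Dab1 passed 1.5-fold (1.63). The 5 mouse genes past 1.5-fold along the lineage were also 5 under each alternative run for that count, and the ferret count of 4 ranged from 3 to 6. These 7 were ferret ratios of PyN-like over RG-like cells, namely RELN in the first set (0.466 without integration, 0.660 at resolution 0.4, 0.220 with cells chosen one by one), RELN in the second set (0.761 at resolution 0.4), DAB1 in the first set (0.822 without integration), LRP8 in the first set (0.847) and RND2 in the second set (0.488), the last 2 with cells chosen one by one. Ratios reported within 1.5-fold also crossed 1, among them RND2 in the first set (0.484) and LRP8 in the second (0.973) with cells chosen one by one, and mouse control Vldlr over the same step (1.30 with cells chosen one by one). The cause was not tested. Pathway genes past 1.5-fold over RG-like, IPC-like and PyN-like cells, 7 in all with the list that is not reported, were 13 with a minimum of 1 UMI in each group and 2 at a fold of 2. Of 24 shares of cells with a UMI, 17 differed between genotypes beyond their interval, and 9 did at 2900 UMIs per cell. No paired analysis was possible because each genotype has 1 library and the ferret sets are of 1 embryo. Low UMI counts limit Reln in RG-like cells most (1 UMI in each library, with upper limits of 1.16 CPM in control and 0.920 CPM in Smo-cKO), and VLDLR in the ferret.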
